A study of Mus musculus with 2 samples.

Results

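The cells described here are type 1 dendritic cells from mouse brain carrying an implanted GL261 tumour, a mouse glioma line, profiled one by one by droplet RNA sequencing. A cell was counted as a member when it held at least 2 UMIs (unique molecular identifiers, each marking 1 captured transcript) of Xcr1 and Clec9a together, fewer than 2 of Ccr7, at most 1 of Siglech, at most 1 of Cd3e and Cd3d together and at most 1 of Sox2 and Met together. This rule selected 291 of 9685 kept cells, 147 of 3110 in the library labelled wild type and 144 of 6575 in the library labelled knockout. Kept cells had at least 500 detected mouse genes and at most 10% mitochondrial UMIs.

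Each group is 1 library of brain tissue collected at day 24, labelled as tumour with its microenvironment. The wild type label gives the host genotype C57BlL6 WT, and the knockout label Cav3.2KO gives Cacna1H-/-, a deletion of the gene of a T-type calcium channel in the host. Both groups share the GL261 implant, and the number of animals pooled per library and their age are not given in the sources used here. With 1 library per group no test between conditions exists, and every interval below covers counting error only, not the spread between cells or animals. The deleted gene did not follow its label: Cacna1h had 13 UMIs among the wild type label's kept cells and 168 among the knockout label's, so directions below are between libraries named by their labels. The sources used here do not say whether the 3' reads lie in the deleted part of the gene.

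Type 1 dendritic cells are the dendritic lineage specialised in cross-presentation, the loading of peptides from engulfed material onto MHC class I for CD8 T cells. They depend on the transcription factors Batf3 and Irf8, sense dying cells through Clec9a, a receptor for exposed actin filaments, and carry Xcr1, the receptor for the chemokine Xcl1. In tumours they are known as a source of Cxcl9 and Cxcl10, the chemokines that draw T cells through Cxcr3, and they respond to interferons.

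Members were deeply covered, with a median per cell of 20348 and 20399 UMIs and of 4411 and 4347.5 genes (wild type label first). Their summed mouse UMIs were 2938129 and 3121032. The 2 libraries shared 21 cell barcodes, and none of these was a member. The knockout label held cells of both sexes by their transcripts. Of its members 109 had Xist and no Y-linked UMI and 22 had Y-linked and no Xist UMIs, whereas 142 of the 147 wild type label members had Y-linked and no Xist UMIs and none had Xist. Sex and label therefore cannot be told apart for most members, and results are also given for the cells with Y-linked UMIs alone.

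The markers that the rule did not count bore out the name for most members. Levels are given as CPM, the usual scaling of a gene's UMIs to one fixed total per group of cells and library, with the wild type label first. Wdfy4, needed for cross-presentation of cell-associated antigen, stood at 1608 and 1483 CPM. Itgae, the integrin CD103, stood at 714 and 617 CPM. Batf3 stood at 207 and 146 CPM, Irf8 at 1887 and 1658 CPM, Cadm1 at 606 and 404 CPM, Tlr3, a receptor for double-stranded RNA, at 163 and 165 CPM, and Naaa, a lysosomal amidase, at 923 and 727 CPM. In the macrophage class Wdfy4 was at 68.3 and 71.7 CPM and Itgae at 9.64 and 8.43 CPM. The maturation gene Fscn1 (4.76 and 5.77 CPM) was near 0 in the members against 1789 and 2288 CPM in the Ccr7 class. These values describe the cells the rule picked and carry no test.

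A minority of members did not look like the rest. Xcr1 was detected in 127 (86.4%, exact binomial 95% interval 79.8 to 91.5) of the wild type label members and in 99 (68.8%, 60.5 to 76.2) of the knockout label members. The others, 20 and 45 cells, were selected by Clec9a alone. In them Itgae was at 29.3 and 36.5 CPM and Wdfy4 at 326 and 322 CPM, while C1qa, a complement gene of macrophages, was at 3139 and 2600.3 CPM and Apoe, a lipid carrier, at 6622 and 4407 CPM. Members with Xcr1 had C1qa at 111 and 78.8 CPM. The Clec9a-only cells are therefore called by the rule and not by the cell type name, and values for members with Xcr1 are given beside the main lists and many of the genes. At least 10 UMIs of C1qa, C1qb and C1qc together were found in 16 (10.9%, 6.35 to 17.1) and 22 (15.3%, 9.83 to 22.2) members, of which 13 and 18 were Clec9a-only. The 13 macrophage markers summed to 2758 CPM and 4288 CPM in all members, 9.28% and 13.8% of the macrophage class, and to 755 and 710.3 CPM in members with Xcr1. None of the 13 was at 0.

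**Figure D1:**
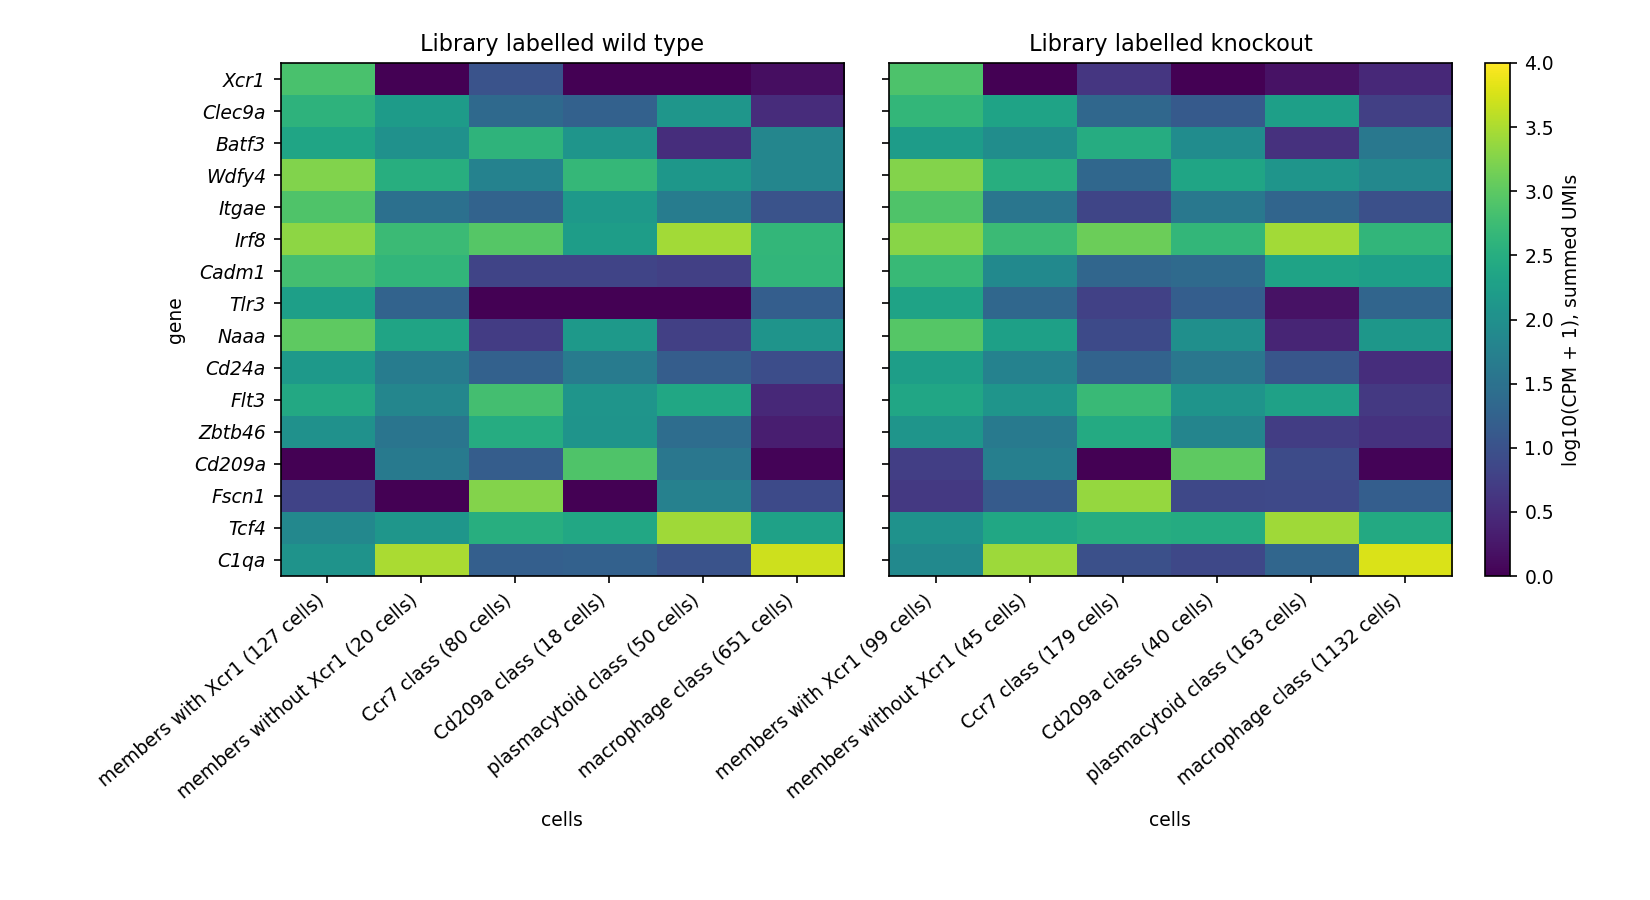
Marker levels by cell class, as log10(CPM + 1) of summed UMIs on the colour scale, in the library labelled wild type (left) and the library labelled knockout (right), with genes in rows and cells in columns. Members with Xcr1 hold Wdfy4, Itgae, Tlr3 and Naaa, and members without Xcr1 (20 and 45 cells) have lower levels of these 4 genes and higher C1qa.

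At the edge of the rule, 16 and 22 members had exactly 2 UMIs of Xcr1 and Clec9a, against a median of 19 and 18 over all members. Their Itgae was 27.1 and 43.0 CPM and their C1qa 3682 and 2819.5 CPM. Just outside, 54 and 88 cells had 1 such UMI and met the rest of the rule, with Itgae at 73.5 and 34.7 CPM and C1qa at 3292 and 3534 CPM. A further 6 and 17 cells missed the rule by Ccr7 alone.

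Genes that set the members apart from the other dendritic classes were ranked by the smaller of their folds in the 2 libraries. The comparison classes were cells with Ccr7 and Fscn1 (80 and 179 cells), Cd209a cells (18 and 40) and plasmacytoid cells (50 and 163). Clnk, a signalling adaptor, stood at 129 and 111 CPM in the members and at most 1.39 and 3.83 CPM in those classes. Gpr33, an orphan receptor, was at 87.8 and 94.8 CPM against at most 5.56 and 5.40 CPM. Plpp1, a lipid phosphatase, was at 203 and 130.4 CPM against at most 2.78 and 5.40 CPM. Gcsam, known from germinal centre B cells, was at 56.2 and 55.4 CPM against at most 2.78 and 5.94 CPM. Cd36, a scavenger receptor, was at 218 and 177 CPM against at most 8.34 and 5.47 CPM. The 3 C1q genes and Ccl24 were also among the 15 leading genes. In the macrophage class C1qa reached 5046 and 5951 CPM and Ccl24 605 and 250.3 CPM. The mitotic genes Birc5 (77.6 and 58.6 CPM) and Ube2c (89.5 and 83.9 CPM) were among the 15 too.

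Type 1 dendritic cells made up a larger share of the kept cells in the library labelled wild type. They were 4.73% (exact binomial 95% interval 4.01 to 5.53) of its kept cells and 2.19% (1.85 to 2.57) of those of the library labelled knockout, a ratio of 2.16 (1.72 to 2.70). Among kept cells with Ptprc, the CD45 gene of immune cells, the shares were 6.37% and 2.71%. Among the 4 dendritic classes they were 49.8% and 27.4%. Members with Xcr1 differed more, at 4.08% (3.42 to 4.84) and 1.51% (1.23 to 1.83) of kept cells, a ratio of 2.71 (2.09 to 3.51). Members without Xcr1 were 0.643% and 0.684% of kept cells. Ccr7 cells were 2.57% and 2.72% of kept cells, Cd209a cells 0.579% and 0.608%, and plasmacytoid cells 1.61% and 2.48%.

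The share was also lower under the knockout label among cells of 1 sex. Among kept cells with Y-linked and no Xist UMIs, members were 142 of 2077 (6.84%) under the wild type label and 22 of 928 (2.37%, 1.49 to 3.57) under the knockout label. Among knockout label cells with Xist and no Y-linked UMI they were 109 of 3940 (2.77%, 2.28 to 3.33). The library labelled wild type had 5 such kept cells and no such member, so no comparison within that sex was possible. Shares of cells depend on what was dissociated and loaded, and the median depth of all kept cells was 12522.5 and 11071 UMIs. The part of dissociation, depth and the cell filter in the difference was not tested.

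Most measured genes differed little between the members of the 2 libraries. Of 6497 genes with at least 100 UMIs in the members of both libraries together, 128 (1.97%) had 2-fold or more of their wild type label level under the knockout label, and 61 (0.939%) were lower by that much. At 1.5-fold, the size used for gene lists below, the shares were 6.03% higher and 5.17% lower. The median log2 ratio, knockout label over wild type label, was -0.02. Each list below is described by its counts and its median, to be read beside these shares. All ratios are on the log2 scale, with an exact 95% interval conditional on the summed UMIs.

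Interferon-response genes were the list that stood furthest from the background. Under the knockout label 26 of 28 measured genes exceeded 1.5-fold and none was lower to that extent, with a median log2 ratio of 1.27. Isg15, a ubiquitin-like modifier induced by type I interferon, stood at 251 and 647 CPM in the libraries labelled wild type and knockout, a log2 ratio of 1.36 (1.24 to 1.49). Ifit1 and Ifit3, which bind foreign RNA or its sensors, stood at 6.81 and 39.4 CPM (2.53, 1.84 to 3.29) and at 9.53 and 56.4 CPM (2.56, 1.98 to 3.196). Oasl2, a relative of the RNA-sensing oligoadenylate synthetases, stood at 24.2 and 119.8 CPM (2.31, 1.94 to 2.70), and Oas3 at 6.47 and 26.6 CPM (2.04, 1.31 to 2.84). Bst2, a membrane tether for budding virus, stood at 292 and 431 CPM (0.56, 0.44 to 0.68). Gbp3 had the smallest difference, at 22.8 and 30.1 CPM (0.40, -0.07 to 0.88).

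The promoters of this list shared a sequence feature that the rule did not use. A pair of GAAA repeats with any 2 bases between them, a core of the interferon-stimulated response element, was searched on both strands in the 250 bases before the start of each gene in the RefSeq table for GRCm38.p6. It occurred in 14 of the 22 measured interferon-response genes with a window (63.6%), in 3.46% of all 27025 genes with a window and in 3.80% of the 5230 measured genes. Of measured genes with a window, 3 of 17 in the type 1 dendritic list (17.6%) and 0 of 6 in the sterol synthesis list had it. The interferon-response list was drawn up from genes known to respond to interferon, so this is a description of it. Windows of 3 genes are printed 5′ to 3′ on the gene's strand, because they show how the repeats are spaced in genes that were higher and that one gene with a match was lower. Capitals mark the match on either strand.
Isg15, chr4:156200819-156201068, minus strand: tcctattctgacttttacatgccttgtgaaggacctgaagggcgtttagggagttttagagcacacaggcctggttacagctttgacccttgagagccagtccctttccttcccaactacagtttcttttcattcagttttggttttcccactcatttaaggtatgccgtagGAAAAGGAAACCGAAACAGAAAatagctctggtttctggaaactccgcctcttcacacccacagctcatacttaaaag
Ifit3, chr19:34583279-34583528, plus strand: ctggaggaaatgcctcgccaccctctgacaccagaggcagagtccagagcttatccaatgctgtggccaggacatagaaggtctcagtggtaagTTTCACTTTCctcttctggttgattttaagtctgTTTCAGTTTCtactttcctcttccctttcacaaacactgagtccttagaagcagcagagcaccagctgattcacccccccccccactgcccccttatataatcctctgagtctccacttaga
Ifi205, chr1:174031756-174032005, minus strand: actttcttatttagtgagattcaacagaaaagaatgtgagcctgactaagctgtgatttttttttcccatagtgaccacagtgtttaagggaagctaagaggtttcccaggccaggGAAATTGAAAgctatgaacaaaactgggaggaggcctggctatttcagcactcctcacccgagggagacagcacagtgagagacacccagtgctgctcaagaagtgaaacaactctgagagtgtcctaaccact
Isg15 had 3 overlapping matches in 1 run that ended 56 bases before the start, and Ifit3 had 2 separate matches on the opposite strand, the nearer 112 bases before the start. Ifi205, described below, had 1 match 124 bases before its start. A match is a stretch of letters and no measure of binding.

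The difference was seen cell by cell and in each subset of members examined. Per cell the list summed to a median of 1613 CPM (10th to 90th percentile 702 to 4941) in the wild type label's members and of 3747 CPM (1385 to 10919) in the knockout label's, so the distributions overlapped. With each cell thinned to 3000 UMIs, leaving out 2 and 1 shallower members, the medians were 5 and 10 UMIs. In members with Xcr1, 20 of 22 genes of the list exceeded 1.5-fold (background 4.93%), with a median of 1.19, and the medians per cell were 1481 and 2672 CPM. In members with fewer than 10 C1q UMIs it was 23 of 23 (background 5.88%), median 1.29. In cells with Y-linked and no Xist UMIs it was 14 of 19 (background 7.19%), median 0.95, and in Y-linked members with Xcr1, 123 and 18 cells, 9 of 12 (background 7.29%), median 0.90. Knockout label members with Xist against all wild type label members gave 25 of 26 (background 6.76%), median 1.39.

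**Figure D2:**
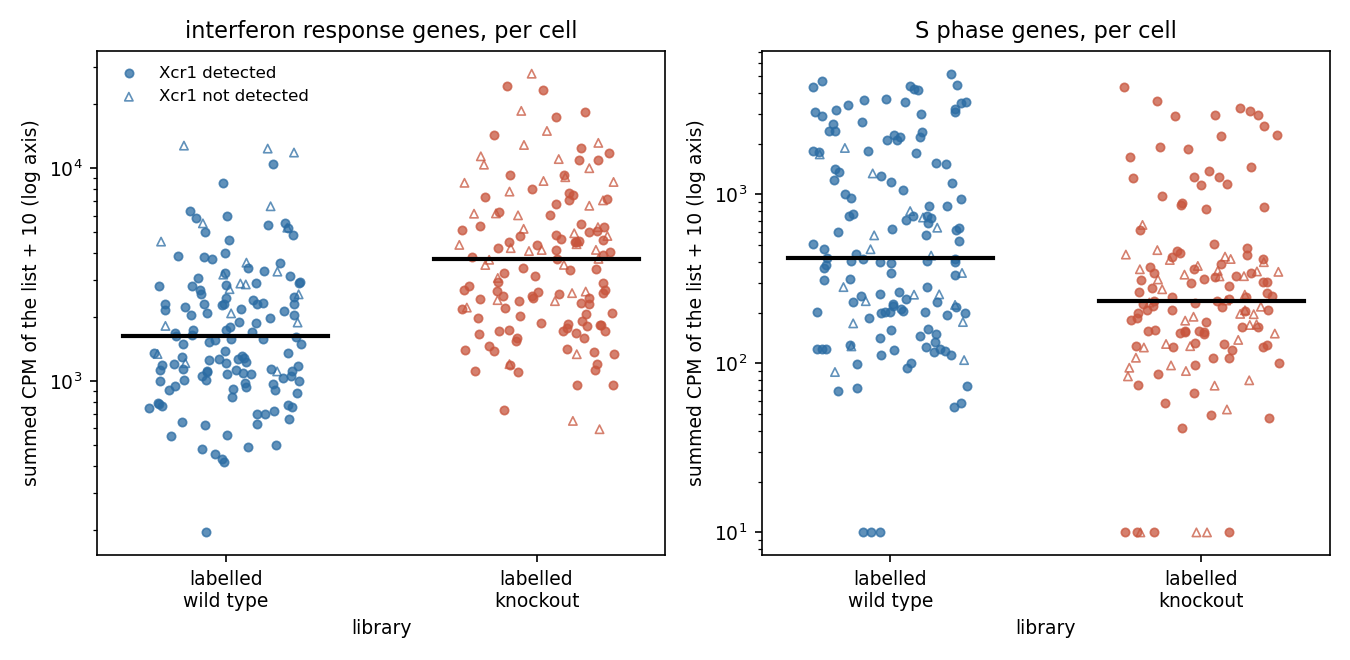
Summed CPM of the interferon-response list (left) and the S phase list (right) in each member, plus 10, on log axes, by library. Filled circles are members with Xcr1, open triangles members without it, and the black line is the median of all members. The interferon medians are 1613 and 3747 CPM, and the 90th percentiles of the S phase list are 3117 and 1341 CPM.

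Tumour cells and other classes also held these transcripts, and free RNA from lysed cells reaches every droplet. A gene was taken to pass a screen when its level in the members was at least 20% of that in the highest other class with at least 50 cells, in the library where the gene was higher. Of the 28 genes 21 passed. Since the screen reads the library where a gene is higher, the ratios of the genes that passed are not given as support. Ifit3 was at 206 CPM in the tumour class of the library labelled knockout, Ifit1 at 125 CPM and Oasl2 at 229 CPM, each above the members' level there. The part of free RNA in these low genes was not tested. Isg15 in the members (647 CPM) was below its level in the Ccr7 class there (1036 CPM). The same list in other classes gave 12 of 20 genes higher in Ccr7 cells (background 6.49%), median 0.63, 21 of 21 in Cd209a cells (background 21.5%), median 1.49, 7 of 18 in plasmacytoid cells (background 5.86%), median 0.36, 20 of 28 in NK cells (background 11.2%), median 0.89, 16 of 30 in T cells (background 7.46%), median 0.63, and 5 of 30 in the macrophage class (background 9.39%), median 0.27. With 1 library per label, whether the members differed from these classes could not be tested.

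The Ifi200 family on chromosome 1, DNA-binding proteins related to the sensor Aim2, differed between the libraries, but not all in 1 direction. Ifi202b had no UMI in the library labelled wild type but 404 UMIs, 129 CPM, in the other, at least 127-fold higher with 3 counts in place of 0, and it was detected in 72.9% of knockout label members. It was at 107 CPM in members with Xcr1 there and at 164 CPM in the macrophage class. Mndal stood at 112 and 412 CPM (log2 ratio 1.88, 1.70 to 2.06). Ifi205, by contrast, stood at 431 and 197 CPM (-1.13, -1.27 to -0.99). Ifi205 was in the type 1 dendritic list, and in the wild type label library its members' level was above the 51.1 CPM of the highest other class, macrophages. In Y-linked cells the Ifi205 log2 ratio was -0.33, against -1.57 for knockout label members with Xist. Members of this family share much of their sequence, so reads may be divided among Ifi202b, Mndal and Ifi205 and the values are uncertain.

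Several signals to T cells were higher under the knockout label. Of 18 genes in the list 8 exceeded 1.5-fold (background 6.03%) and none was lower, median 0.28. Cxcl9 stood at 435 and 1168 CPM (log2 ratio 1.42, 1.33 to 1.52), and Cxcl10 at 53.8 and 271 CPM (2.33, 2.09 to 2.59). In members with Xcr1 Cxcl9 stood at 238 and 1086 CPM (2.19), and Cxcl10 at 24.3 and 127 CPM (2.39). Of the list, 8 of 17 genes exceeded 1.5-fold in these members (background 4.93%), median 0.47. Cxcl9 was detected in 31.0% and 52.4% of members thinned to 3000 UMIs (44.1% and 69.9% unthinned), against 3.61% and 3.26% of the tumour class thinned alike, with median depths of 20477 and 20420 UMIs in these members and 30477 and 25070 in tumour cells. Cxcl10 in the tumour class of the library labelled knockout was at 1046 CPM, above the members. Ccl5 stood at 53.8 and 139 CPM (1.37, 1.10 to 1.64) but did not pass the screen, since Ccr7 cells held 6824 CPM. Ccl22, a ligand of Ccr4 that did not pass the screen either, stood at 15.3 and 32.4 CPM (1.08, 0.56 to 1.62). Ccl4 was at 247 and 169 CPM (-0.55, -0.71 to -0.38). The costimulatory ligand gene Cd86 differed little, at 995 and 1018 CPM (0.03, -0.04 to 0.11).

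Of 15 maturation genes other than Ccr7, 5 were at least 1.5-fold higher and none was lower, with a median of 0.46. Only 7 of the 15 passed the screen, 2 of them among the 5. In members with Xcr1 4 of 15 were higher and 1 lower (background 4.93% and 5.36%), median 0.36. Cd40, the receptor through which helper T cells license dendritic cells, stood at 49.4 and 98.0 CPM (0.99, 0.70 to 1.29) and at 42.4 and 87.0 CPM in members with Xcr1. Traf1 stood at 76.9 and 153 CPM (0.99, 0.76 to 1.23) but did not pass the screen against Ccr7 cells, and Ccl17 at 97.3 and 167 CPM (0.78, 0.57 to 0.99). Cd274, the ligand of PD-1, stood at 229.7 and 272 CPM (0.24, 0.10 to 0.39). Since the rule capped Ccr7, members at the most mature end were left out, and without that limit (153 and 161 cells) the median of this list was 0.81. Among 13 checkpoint and tolerance genes 2 were higher and none lower, median 0.10. Restricted to Xcr1 members, 2 of 12 were higher and 1 lower (background 4.93% and 5.36%), median -0.08, so the sign of the median depended on the cells. Lgals9, a ligand of Havcr2, stood at 41.9 and 79.1 CPM (0.92, 0.60 to 1.24), and Havcr2 itself, the receptor Tim-3, at 530.3 and 375 CPM (-0.50, -0.61 to -0.39), with a log2 ratio of -0.35 in members with Xcr1. Arg1, an arginine-degrading enzyme of macrophages, was the other, at 21.1 and 68.9 CPM, and it was detected in 2.72% and 6.25% of members. In the library labelled wild type 66.1% of its UMIs came from 1 member.

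**Figure D3:**
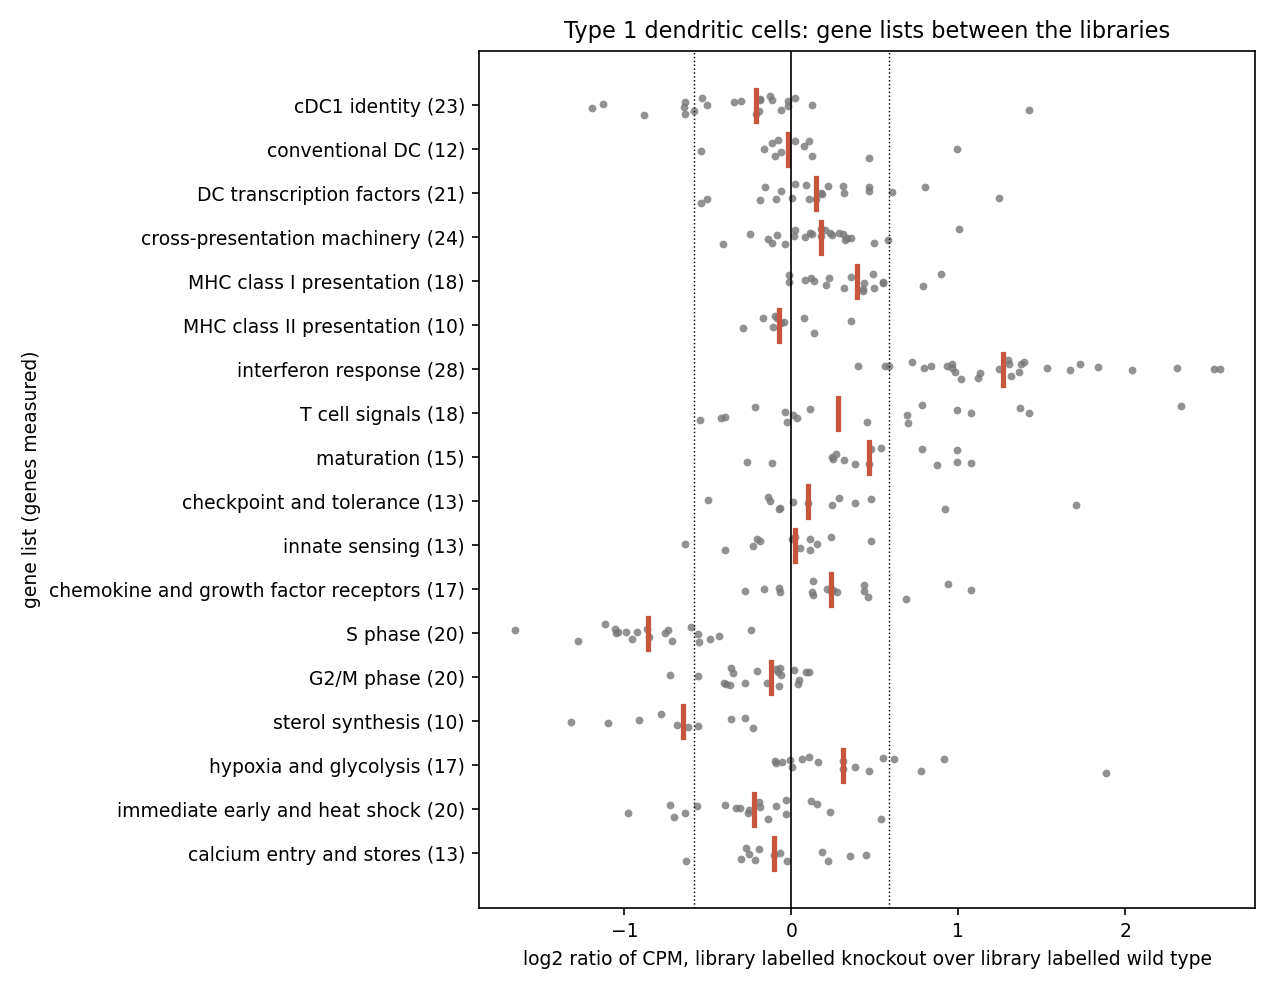
Log2 ratio of CPM, library labelled knockout over library labelled wild type, for each measured gene (grey points) of each list, with the list's median (red bar). Dotted lines are 1.5-fold. The interferon-response median lies at 1.27, those of S phase and sterol synthesis at -0.86 and -0.65, and MHC class II genes lie near 0.

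Genes of MHC class I presentation were shifted by a small amount, with a median of 0.39 (0.30 in members with Xcr1). Above 0 were 16 of 18, against 3048 of 6497 measured genes, and 2 of 18 were past 1.5-fold (background 6.03%). H2-K1, a classical heavy chain, stood at 1221 and 1722 CPM (0.50, 0.43 to 0.56), H2-D1 at 1238 and 1669 CPM (0.43, 0.37 to 0.49) and B2m, the common light chain, at 1522 and 1893 CPM (0.31, 0.26 to 0.37). The nonclassical H2-Q7 stood at 211 and 365 CPM (0.79, 0.65 to 0.94) and H2-Q4 at 45.9 and 85.5 CPM (0.90, 0.59 to 1.21); reads of these related genes may be exchanged. The immunoproteasome subunits Psmb8 (1031 and 1023 CPM, -0.01, -0.08 to 0.06) and Psmb9 (679 and 673 CPM, -0.01, -0.10 to 0.08) had intervals that included 0, and Psmb10 stood at 142 and 207 CPM (0.55, 0.37 to 0.73). MHC class II genes had none of 10 past 1.5-fold, median -0.07. Cd74, the invariant chain, was the most abundant at 17251 and 18187 CPM (0.08, 0.06 to 0.09), and H2-Ab1 stood at 8014 and 7688 CPM (-0.06, -0.09 to -0.03).

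Of 24 cross-presentation genes 1 was past 1.5-fold and the median was 0.18. That gene was Cybb, a subunit of the phagosomal oxidase, at 90.5 and 182 CPM, but in members with Xcr1 it was at 18.9 and 29.1 CPM, and it did not pass the screen. Rab43, a trafficking GTPase used in cross-presentation, stood at 756 and 568 CPM (-0.41, -0.50 to -0.32). Wdfy4 (-0.12, -0.17 to -0.06) and Lnpep, an endosomal peptidase (0.36, 0.20 to 0.52), were within 1.5-fold.

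The lineage genes were level or lower under the knockout label. Clec9a-only cells, low in these genes, were also more frequent there, and their part in the list's median was not tested beyond the members with Xcr1. Of 23 measured type 1 dendritic genes 7 were at least 1.5-fold lower (background 5.17%), and Cxcl9 alone was higher, median -0.21. In members with Xcr1, 3 of 23 were lower (background 5.36%) and the median was -0.07. Sult1a1, a sulphotransferase, stood at 130.4 and 57.03 CPM (-1.19, -1.46 to -0.93), and at 146 and 72.3 CPM in members with Xcr1. Batf3 had a log2 ratio of -0.51 (-0.69 to -0.33), and -0.45 in members with Xcr1. The log2 ratio of Irf8 was -0.19 in all members and -0.07 in members with Xcr1, and that of Cadm1 was -0.59 and -0.34. Among 21 transcription factors 3 were higher, each more abundant in another class. Zeb2, a factor that opposes the type 1 fate, stood at 105 and 249 CPM in all members and 26.2 and 55.8 CPM in members with Xcr1. Tcf4, the factor of plasmacytoid cells, stood at 78.6 and 137 CPM and did not pass the screen. Id2, which restrains Tcf4, stood at 945 and 649 CPM (-0.54, -0.63 to -0.46), with a log2 ratio of -0.43 in members with Xcr1. The growth factor receptor Flt3 was at 237 and 211 CPM (-0.17, -0.32 to -0.01), and Zbtb46 at 95.6 and 103 CPM (0.10, -0.13 to 0.34).

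Replication genes were lower under the knockout label. Of 20 measured S phase genes 15 were lower by 1.5-fold or more, with none higher (median -0.86). Gins2, part of the replicative helicase, stood at 32.3 and 10.3 CPM (-1.66, -2.28 to -1.07), Mcm2 at 35.7 and 14.7 CPM (-1.28, -1.81 to -0.76) and Mcm6 at 88.8 and 41.0 CPM (-1.12, -1.43 to -0.80). Pcna, the sliding clamp of the polymerase, stood at 136 and 70.2 CPM (-0.96, -1.20 to -0.71). Dnmt1, the maintenance DNA methyltransferase, stood at 63.0 and 29.2 CPM, Dtymk, a nucleotide kinase, at 57.5 and 26.6 CPM, and Hist1h1b, a replication-dependent linker histone, at 191 and 90.4 CPM. In members with Xcr1, 11 of 20 S phase genes were lower (background 5.36%), median -0.61. In Y-linked cells it was 7 of 17 (background 10.9%), median -0.43, and with each barcode thinned to 3000 UMIs before the rule, which left 109 and 105 members, the median was -0.26. The list was lower in other classes too. In NK cells it was 14 of 18 (all measured genes, 430 of 7571), median -0.94. In T cells it was 8 of 24 (311 of 11001), median -0.53, and in the macrophage class 4 of 22 (background 4.4%), median -0.43. In Ccr7, Cd209a and plasmacytoid cells 1, 0 and 2 of its genes were measured.

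Mitotic genes were shifted less as a list. Of 20 G2/M genes 1 was lower by 1.5-fold or more, Aurka (22.8 and 13.8 CPM), and the median was -0.12. Below 0 were 15 of the 20, against 3449 of 6497 measured genes. Per cell the list summed to a median of 381 and 355 CPM, with 90th percentiles of 5112 and 2700 CPM. The direction of the median log2 ratio depended on the cells: it was 0.12 in members with Xcr1, 0.72 in Y-linked cells, where 10 of 16 were higher (background 7.19%), and -0.45 for knockout label members with Xist. Top2a stood at 175 and 137 CPM (-0.35, -0.54 to -0.16) and Mki67 at 114 and 86.8 CPM (-0.39, -0.63 to -0.15). Cells with at least 2 UMIs of Mki67 and Top2a together were 51 (34.7%, 27.0 to 43.0) of the wild type label members and 27 (18.8%, 12.7 to 26.1) of the knockout label members, and 37.8% (29.3 to 46.8) and 23.2% (15.3 to 32.8) of members with Xcr1. Among Y-linked members they were 51 of 142 and 5 of 22, and among knockout label members with Xist 20 of 109 (18.3%, 11.6 to 26.9).

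Genes of sterol synthesis were also lower under the knockout label. Of its 10 measured genes 6 were 1.5-fold or more lower, and none was higher (median -0.65). Hmgcs1, which makes the precursor of mevalonate, stood at 57.5 and 23.1 CPM (-1.32, -1.74 to -0.91). Msmo1 stood at 43.9 and 20.5 CPM (-1.10, -1.55 to -0.66), Cyp51 at 65.7 and 34.9 CPM (-0.91, -1.26 to -0.57) and Fdps at 171 and 99.6 CPM (-0.78, -0.99 to -0.57), each an enzyme of the later pathway. Srebf2, the transcription factor of the pathway, stood at 109.6 and 71.5 CPM (-0.62, -0.87 to -0.37). In members with Xcr1, 7 of 9 were lower (background 5.36%), median -0.70, and in Y-linked cells 5 of 8 (background 10.9%), median -0.77. The list was also lower in Ccr7 cells, 8 of 8 (background 5.81%), median -0.95, in the macrophage class, 19 of 20 (background 4.4%), median -1.04, and in plasmacytoid cells, 6 of 12 (background 4.74%), median -0.58.

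**Figure D4:**
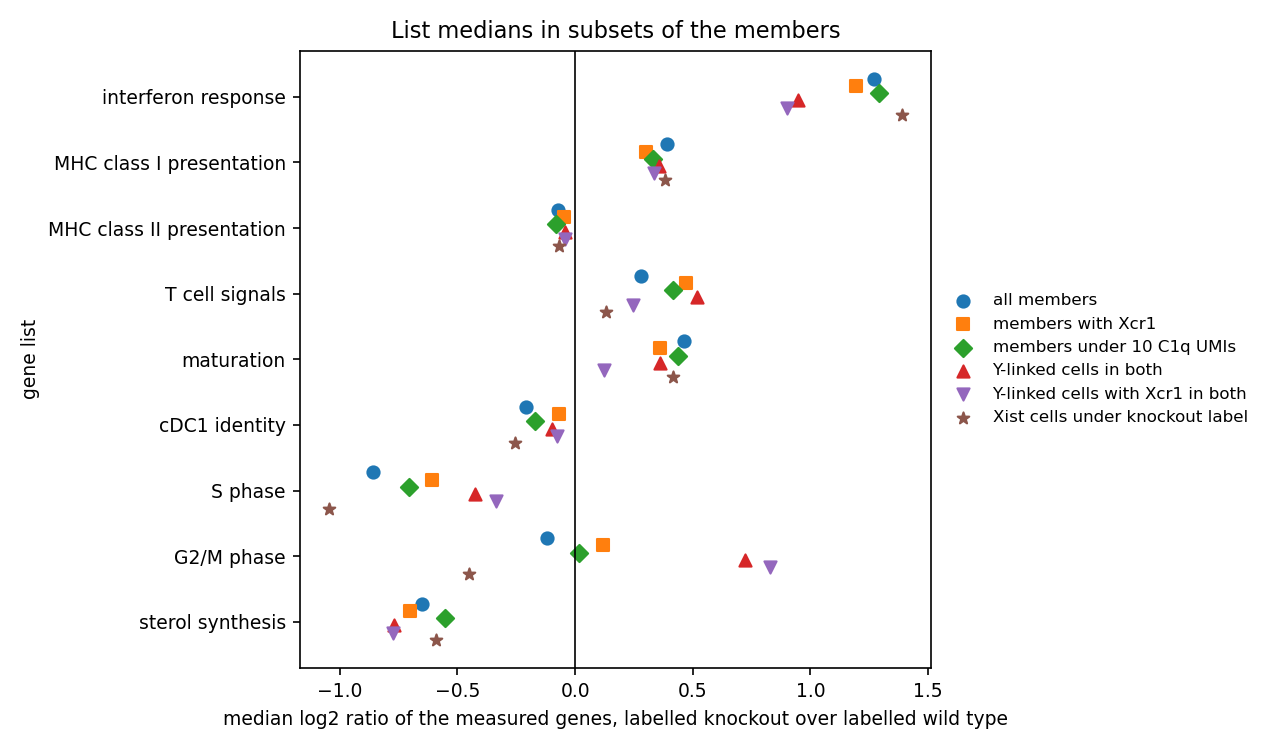
Median log2 ratio of 9 lists, library labelled knockout over library labelled wild type, in all members and in 5 subsets. Interferon-response medians lie between 0.90 and 1.39 and sterol medians below -0.5 in every subset shown, whereas the G2/M median runs from -0.45 to 0.83.

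The single genes furthest apart were of several kinds. The 12 highest and 12 lowest log2 ratios were taken among genes at 50 CPM or more in the higher library that passed the screen. Tnfaip8l3, a phosphoinositide carrier, stood at 6.47 and 51.9 CPM (3.00, 2.32 to 3.77) and at 6.93 and 59.5 CPM in members with Xcr1. Timd4, a receptor for dying cells, stood at 7.83 and 73.4 CPM (3.23, 2.61 to 3.92) and at 8.09 and 59.1 CPM with Xcr1, but in Y-linked members with Xcr1 its log2 ratio was -1.86. Ifitm1, a membrane protein that blocks virus entry, stood at 97.0 and 361 CPM (1.90, 1.71 to 2.09), and its log2 ratio was 0.84 with Xcr1 and -1.03 in Y-linked members with Xcr1. Ly6i stood at 3.74 and 56.1 CPM, and at 3.47 and 8.21 CPM with Xcr1. C3, the central complement component, stood at 8.85 and 55.4 CPM, and at 2.70 and 6.16 CPM with Xcr1. For 2 of the 12, 1 cell decided the value: 97.8% of the knockout label UMIs of Ccl8 (2.72 and 59.0 CPM) and 86.7% of those of Spp1 (23.5 and 123 CPM) came from a single member.

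Among the lowest, Abca13, a lipid transporter, stood at 90.5 and 19.5 CPM (-2.21, -2.64 to -1.81), and was detected in 23.8% and 10.4% of members. Irs2, an adaptor of the insulin receptor, stood at 79.6 and 26.9 CPM (-1.57, -1.94 to -1.20). The log2 ratios of Abca13 and Irs2 in members with Xcr1 were -2.03 and -1.61. Ppp1r14a, a phosphatase inhibitor, stood at 80.3 and 36.2 CPM (-1.15, -1.49 to -0.82) and Nectin1, an adhesion molecule, at 52.8 and 24.7 CPM (-1.10, -1.51 to -0.69). Gfer, a mitochondrial sulphydryl oxidase, stood at 77.6 and 24.7 CPM (-1.65, -2.05 to -1.27), with a log2 ratio of -1.58 in members with Xcr1 and -1.18 in Y-linked cells. It lies on chromosome 17 at 24693187 to 24696156 (GENCODE M21, mm10), the chromosome of Cacna1h at 25374285 to 25433783.

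**Figure D5:**
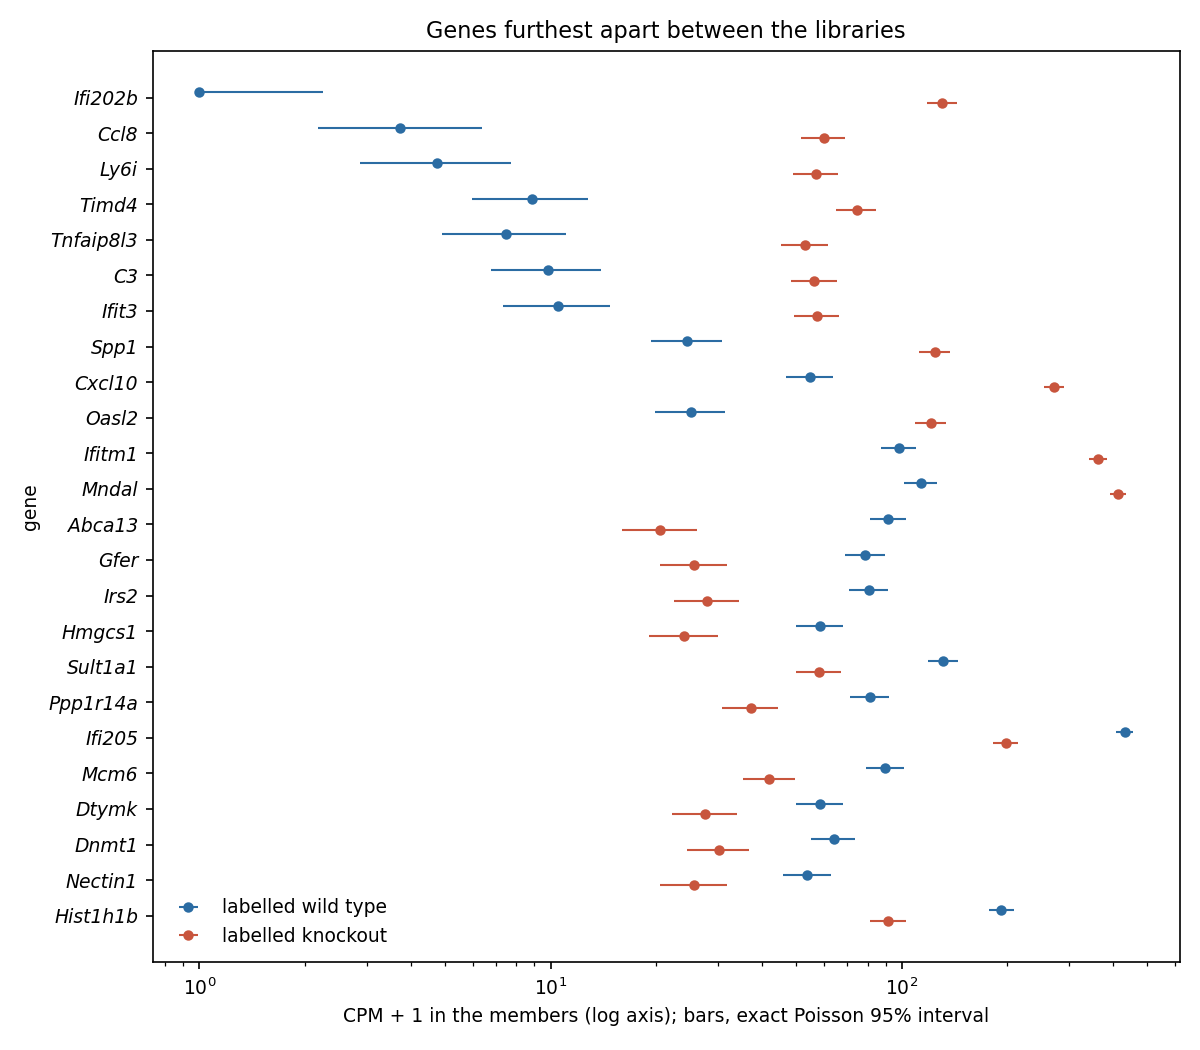
CPM + 1 on a log axis for the 12 highest and 12 lowest genes in the members, with exact Poisson 95% intervals for counting error, in the library labelled wild type (blue) and the library labelled knockout (red). The genes were chosen for the size of their ratio, so the distance between the libraries is a description. The values of Ccl8 and Spp1 rest on 1 cell each.

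Large differences that failed the screen were named after their values were seen. Igkc, an antibody light chain, had 4 and 252 UMIs in the members, and Igha 16 and 111; B-lineage cells were the highest class for both. Gzmc, a granzyme of NK cells, had 256 and 3 UMIs, and 85.9% of the 256 came from 1 member. Nrxn3, a neuronal adhesion gene abundant in the tumour class, had 0 and 315 UMIs, and 99.7% of the 315 came from 1 member. Over their marker lists the members' summed levels were 424 and 280.0 CPM for T and NK cells (423 and 194 CPM with Xcr1), 256 and 465 CPM for type 2 dendritic cells (184 and 245 CPM with Xcr1), 168 and 274 CPM for plasmacytoid cells (170.2 and 209 CPM with Xcr1), 194.7 and 205 CPM for microglia, 45.9 and 45.8 CPM for B cells, 41.2 and 32.4 CPM for tumour cells, and 6.81 and 10.3 CPM for neutrophils. At 0 were Cd79a, Fcmr and Pax5 of the B cell list, Klk1 and Spib of the plasmacytoid list, Sall1 of the microglia list and Fabp7 of the tumour list under the wild type label, and Retnlg and Mmp9 of the neutrophil list in both libraries. The neutrophil genes S100a9 under the wild type label and S100a8 and Cxcr2 under the knockout label were at 0 as well. The part of these transcripts in the results was not tested.

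The remaining lists had at most 4 genes past 1.5-fold. Over all measured genes the shares were 6.03% higher and 5.17% lower. Of 12 genes shared by conventional dendritic cells, Traf1 alone was past 1.5-fold, median -0.02. Among 17 receptors 3 were higher and none lower, median 0.24, with Ccr1, a chemokine receptor, at 29.6 and 62.5 CPM (1.08, 0.71 to 1.46). In members with Xcr1, 1 of 14 receptors was higher (background 4.93%), median 0.19. Cx3cr1, also past 1.5-fold, was at 22.5 and 36.2 CPM, and its log2 ratio was -0.24 in members with Xcr1. Of 13 innate sensing genes 1 was lower, Tlr11, the sensor of profilin-like proteins, at 40.8 and 26.3 CPM (-0.64, -1.06 to -0.22), and the median was 0.02. Of 20 immediate early and heat shock genes 4 were lower and none higher, median -0.22, including the phosphatase gene Dusp1 at 271 and 137 CPM (-0.98, -1.15 to -0.81) and Fosb at 321 and 194 CPM (-0.72, -0.87 to -0.58). In members with Xcr1, 5 of these 20 were lower (background 5.36%), median -0.25. Of 17 hypoxia and glycolysis genes 4 were higher and none lower, median 0.31, but in members with Xcr1 it was 1 of 14 (background 4.93%) and the median was 0.00.

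The channel named by the knockout label was barely present in these cells. Cacna1h had 1 UMI in the 147 members of the library labelled wild type and 2 UMIs in the 144 of the library labelled knockout. The other T-type genes had 1 and 0 UMIs (Cacna1g) and 0 and 0 (Cacna1i). A count of 0 allows a level of up to 3 counts, 1.02 and 0.961 CPM in the 2 libraries, and the exact upper limit for the 1 UMI of Cacna1g was 1.90 CPM. Cacna1s, the pore gene of skeletal muscle L-type channels, was the only voltage-gated pore gene measured, at 18.0 and 21.1 CPM (0.23, -0.31 to 0.78). Of 13 genes of calcium entry and stores 1 was past 1.5-fold, Nfatc2, a calcium-dependent transcription factor, at 53.1 and 34.3 CPM (-0.63). Orai1, a pore of store-operated entry, stood at 147 and 144 CPM (-0.03, -0.22 to 0.17).

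Within the library labelled knockout, members with Xist (109 cells) and with Y-linked UMIs (22 cells) differed from each other. Of 4264 genes measured there, 10.2% were at least 1.5-fold higher and 5.25% lower in the Xist cells. All 10 measured macrophage markers were higher in the Xist cells, median 1.72, and 14 of 15 G2/M genes were lower, median -1.22. Xcr1 was detected in 71 (65.1%, 55.4 to 74.0) of the Xist cells and in 18 (81.8%, 59.7 to 94.8) of the Y-linked cells. Interferon-response genes were higher in the Xist cells for 8 of 25, median 0.37, and MHC class II genes for none of 10, median -0.05. Cells of 1 sex may come from 1 or more animals, and the labels do not tie cells to animals.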

How the data were processed

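Tissue from each host was dissociated and made into 1 droplet library per genotype label, per the labels' protocols. The deposited files hold raw UMI counts per gene and barcode from Cell Ranger 7.1.0 on mm10, per the submitters' processing notes, which also name Seurat 5.0.2 without its role. The feature tables list 32285 mouse genes, and human genes in the same tables were left out of levels. From these counts, barcodes with 500 genes or more and no more than 10% mitochondrial UMIs were taken as cells, members were chosen by the marker rule, and their UMIs were summed per library and divided by the members' total (CPM).

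Log2 ratios were computed for genes with at least 100 UMIs in both libraries together. Their 95% intervals are exact and conditional on the summed counts, and 3 counts replaced 0. Shares have exact binomial intervals, and ratios of shares log-normal ones. With 1 library per group there was no test across samples, and genes were counted by size (2-fold, or 1.5-fold for lists). Named genes were the markers, the 12 highest and 12 lowest ratios at 50 CPM or more that passed the screen, up to 4 by abundance and 4 by ratio from each list, and the 15 leading genes over the other dendritic classes. Bst2, Cxcl10, Cd40 and other list members were named under this rule, and Igkc, Igha, Gzmc and Nrxn3 were chosen after their values were seen. The members and lists were chosen with earlier results of these data known. Doublets were left in the main values and called with scanpy's Scrublet as an alternative, 7 and 2 of the members. These 2 counts are not comparable, since the highest scores up to the expected number were taken for the wild type label, where the automatic threshold marked under 0.5% of cells, and the automatic threshold was used for the knockout label. Computation used scanpy 1.11.5, pandas 2.3.3, scipy 1.17.1 and numpy 2.4.6 in Python 3.11.15, with figures by matplotlib 3.10.9, and the scripts were tested on simulated data. Some list genes are not reported here. Promoter windows came from RefSeq (GRCm38.p6). The depth was 54567114 and 103281480 UMIs over all barcodes and genes. Alternatives covered the member rule, depth, doublets, the count minimum and the fold.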

Additional observations from a re-analysis of the deposited data

Results flagged for a closer look

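Transcripts assigned to human genes were present in the members, although the tissue and the implanted line are labelled as mouse. They amounted to 99.4 CPM of all the members' UMIs under the wild type label (292 UMIs in 124 members) and 132 CPM under the knockout label (411 UMIs in 130 members). Both levels are sums over all human genes. They are therefore unlike the 1.02 and 0.961 CPM that a single count of 0 allows, taken as 3 counts. These genes entered no comparison, there is no control library for them, and the source of the reads was not tested.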

How the results depend on the processing

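Over 184 alternative values of the 2 counts of genes, the share of cells and the medians of 8 lists (interferon response, sterol synthesis, MHC class I, MHC class II, T cell signals, maturation, cross-presentation and type 1 dendritic genes), 166 stayed close to the reported value and 18 moved. Medians of other lists are not among them, and those of the checkpoint and G2/M lists changed sign between sets of cells. The 128 genes at least 2-fold higher became 82 with Xcr1 and Clec9a both required, 75 in Y-linked cells, 206 and 80 with minimums of 50 and 200 UMIs, 1005 with no minimum beyond 1 UMI in each library, and 392 at 1.5-fold. The 61 lower genes became 40 with barcodes thinned to 3000 UMIs before the rule, 149 in Y-linked cells, 146 and 31 with minimums of 50 and 200 UMIs, 1037 with no minimum, and 336 at 1.5-fold. The log2 ratio of the share of cells, -1.11, was -1.45 with both markers required, -1.53 in Y-linked cells and -0.77 for Xist cells of the knockout label against all wild type label cells, the last added after seeing the data. The MHC class II median was -0.18 with thinned barcodes, the maturation median 0.81 with no limit on Ccr7, and the type 1 dendritic median -0.49 with 1 marker UMI enough. For 32 named genes, 352 of 448 values stayed close, 94 moved and 2 reversed, both for Ccl8: -1.85 with thinned barcodes and -1.60 without members of 10 or more C1q UMIs, settings that leave out cells. Timd4 and Ifitm1 also changed sign in Y-linked members with Xcr1, as given above, and are not among these 2. Fewer or other genes or cells enter under each of these settings, and otherwise the cause was not tested. No paired analysis was possible because each group is 1 library. Leaving out a replicate was not possible for the same reason, and depth limits genes under 100 UMIs.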
